A study of Mus musculus with 2 samples.

Results

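The 10 genes described here are used to tell the pyramidal neurons of the hippocampal fields CA1, CA2 and CA3 apart: Wfs1, Fibcd1, Mpped1, Pou3f1, Man1a and Spink8 for CA1, Rgs14 and Amigo2 for CA2, and Bok and Nectin3 for CA3. They were chosen by name, as the rows of both count tables that carry these symbols, out of 18497 annotated genes with a read in either library. Their reads fell in 90 transcript models in replicate 1 and 98 in replicate 2. The study sequenced long reads, each of which may cover an entire reverse-transcribed RNA, from tissue labelled as layer of hippocampus of female B6CASTF1/J mice at 2 months of age. B6CASTF1/J is the hybrid of the C57BL/6J and CAST/EiJ strains, and no treatment or other genotype is named. The single group has 2 libraries, each begun with 2 µg of RNA. The labels give the libraries separate biosamples but the same donor entry, and their fields for replicate 1 disagree on which female it came from. Whether these were separate animals is therefore not plain, and a difference between the libraries may be technical. The p-values below set the reads of these libraries against counting error only, and measure no spread between samples or animals.

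Information in the hippocampus passes from the dentate gyrus to CA3 and on to CA1, and CA2 is a narrow field between these last fields that is known for its part in social memory and for resisting synaptic plasticity. Pyramidal neurons of each field carry their own set of adhesion, signalling and transcription factors. The labels name no field, so each level below is that of the whole sample, and fewer cells of a type and less RNA per cell cannot be told apart.

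The tables held 836240 reads in replicate 1 and 752291 in replicate 2, of which 826596 and 745492 were not on spike-in RNAs. A gene's level is its number of reads per 1000000 of these (CPM). It is not divided by length, since a long read counts once whatever the length of its RNA. In replicate 1 a read equals 1.21 CPM and the limit for a gene at 0 reads is 3.63 CPM, while in replicate 2 these are 1.34 and 4.02 CPM. Intervals for a library are exact 95% Clopper-Pearson intervals, and they cover counting error only. Markers of excitatory neurons were looked up, of which Slc17a7, the vesicular glutamate transporter of hippocampal and cortical neurons, had 1205 and 1182 CPM. It does not tell these tissues apart. The 6 listed genes of dentate granule cells summed to 276 CPM in replicate 1 and 315 CPM in replicate 2. Markers of neighbouring tissue were also present. The choroid plexus list summed to 339 CPM in replicate 1 and 185 CPM in replicate 2, nearly all from Ttr, and the 4 cortex genes summed to 82.3 and 92.6 CPM. The thalamus list summed to 66.5 and 72.4 CPM, and the striatum list to 62.9 and 63.0 CPM. The part of such tissue in the levels below was not tested.

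All 10 genes were detected in both libraries, over a range of about an order of magnitude. Wfs1 stood at the top with 254 ± 16.7 CPM (SD, n = 2 libraries), and Rgs14 at the bottom with 23.7 ± 4.43 CPM. The median of the 10 genes was 86.7 CPM, against 11.6 CPM over all genes with a read. The 6 CA1 genes summed to 749 CPM in replicate 1 and 795 CPM in replicate 2, the CA2 pair to 61.7 and 81.8 CPM, and the CA3 pair to 168 and 137 CPM. These sums hold different numbers of genes and say nothing of the size of the fields.

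**Figure D1:**
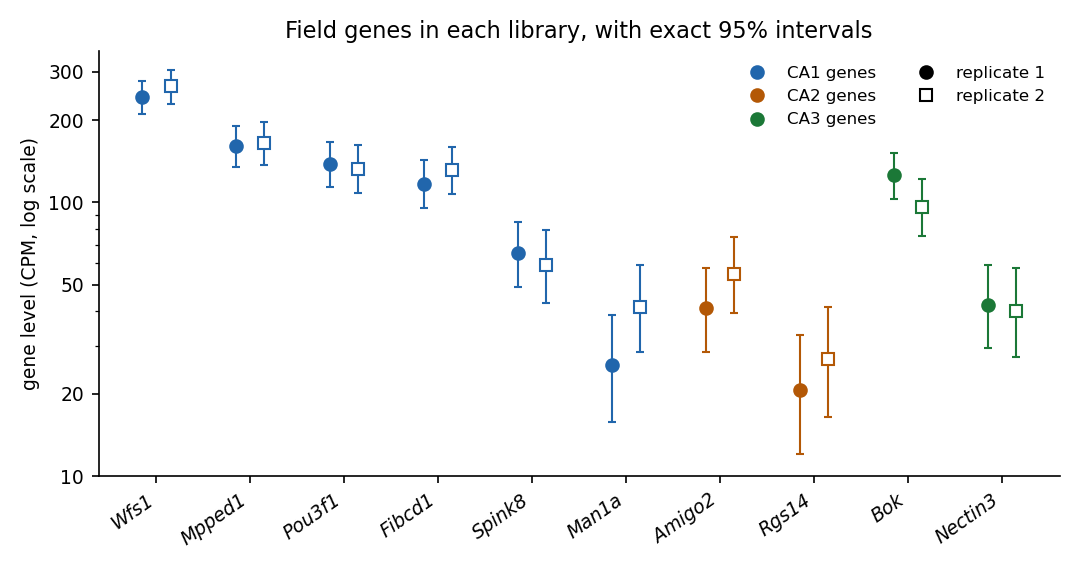
Level of each gene in CPM on a log scale, with replicate 1 as filled circles, replicate 2 as open squares and bars for the exact 95% interval of each library. Wfs1 is the highest at 242 and 266 CPM, Rgs14 the lowest at 20.6 and 26.8 CPM, and the intervals of the libraries overlap for every gene.

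In descending order of the mean came Wfs1, Mpped1, Pou3f1, Fibcd1, Bok, Spink8, Amigo2, Nectin3, Man1a and Rgs14. The ranges of the libraries overlapped between the neighbours Fibcd1 and Bok, Amigo2 and Nectin3, Nectin3 and Man1a, and Man1a and Rgs14, so their order is not set by these data. The other neighbours had ranges that did not touch, by as little as 133 CPM for the lower library of Pou3f1 and 131 CPM for the higher library of Fibcd1. Of these pairs, only Wfs1 and Mpped1 also had exact intervals that stayed apart in both libraries. In replicate 1, for example, the interval was 114 to 166 CPM for Pou3f1 and 95.2 to 143 CPM for Fibcd1. For Bok and Spink8 the intervals were apart in replicate 1, at 103 to 152 and 49.1 to 85.2 CPM. In replicate 2 they overlapped, at 75.6 to 122 and 42.9 to 79.2 CPM. Overlap of intervals does not by itself show that levels are equal, and the order within these remaining pairs was not tested. The order also depends on which reads are counted. On full-splice models alone Pou3f1 stood at 135 CPM, above Mpped1 at 102 CPM, and Fibcd1 stood at 42.6 CPM, below Bok, Spink8 and Amigo2.

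How far the libraries differed was tested with a two-sided exact binomial test of the reads of replicate 1 and replicate 2 against the ratio of their totals. It ran over the 9062 genes with at least 20 reads together. A call needed a ratio of at least 2-fold and a p under 0.05 after adjustment by Benjamini-Hochberg. None of the 10 genes was called, beside 28 of 9062 genes in all (0.309%), and none had an unadjusted p under 0.05. The smallest p-values were those of Man1a, with a ratio of replicate 1 to replicate 2 of 0.616 (exact binomial p = 0.095, adjusted p = 0.776), and Bok, with a ratio of 1.3 (exact binomial p = 0.0965, adjusted p = 0.78). The median log2 ratio was -0.086 over the 10 genes and -0.008 over all genes tested.

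The count tables also sort each read by how its model matches the annotation. Full-splice models have the intron chain of an annotated transcript, a new combination of annotated splice sites, or at least 1 unannotated splice site. Incomplete splice matches carry part of a longer chain, mostly but not always an annotated one, and genomic models overlap a gene and match none of its splicing. Over the 10 genes the median share of full-splice reads was 73.6%, against 82.7% over the 9058 genes with at least 20 reads together and 1 in each library. They ranged from 33.8% for Fibcd1 to 100% for Pou3f1 and Amigo2.

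**Figure D2:**
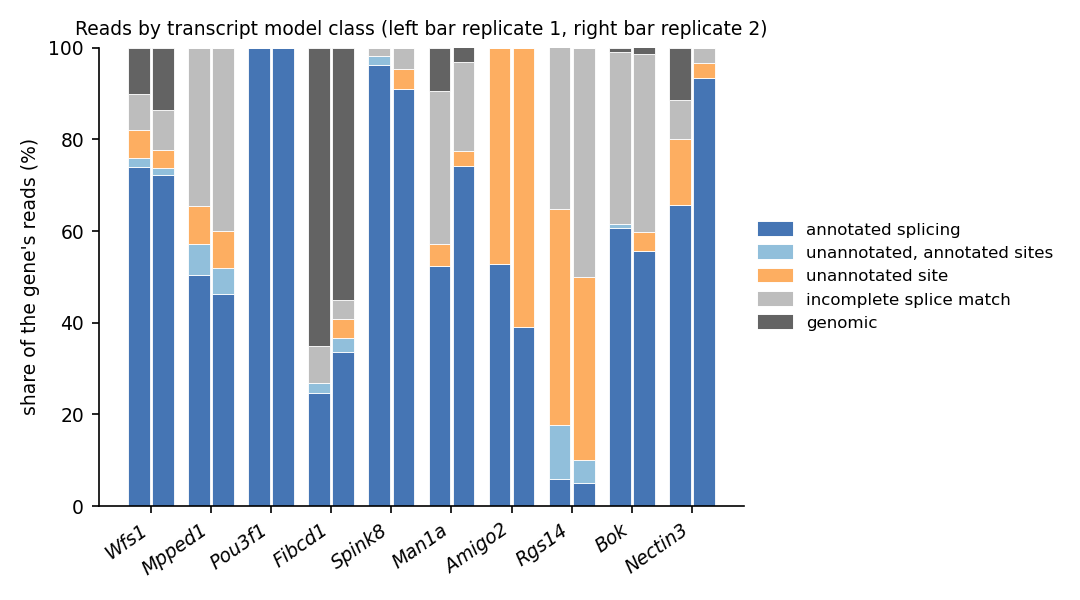
Share of each gene's reads in percent by model class, with replicate 1 as the left bar and replicate 2 as the right bar. Genomic reads fill 64.9% and 55.1% of Fibcd1, unannotated splice sites 47.1% and 61.0% of Amigo2, and Pou3f1 has annotated reads alone.

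Among the CA1 genes, Wfs1 encodes wolframin, a membrane protein of the endoplasmic reticulum that is lost in Wolfram syndrome. Wfs1 (chromosome 5, 36966104 to 36989205, minus strand, mm10) had 200 reads in replicate 1 and 198 in replicate 2. Of these 20 and 27 were genomic, in a model of 4 bases in replicate 1 and of 2347 bases in replicate 2. The mean genomic share of 11.8% became 6.82% with models under 200 bases left out. The annotated chain of Wfs1-201, with 8 exons, took 147 of 164 full-splice reads in replicate 1 and 143 of 154 in replicate 2, or 91.2% ± 2.28 (SD, n = 2). An exon of 130 bases that is not in Wfs1-201 lay between the last 2 exons, at 36969393 to 36969522, within the coding span. The classes of the chain with this exon disagreed. It was labelled as having an unannotated splice site in replicate 1, but as a new combination of annotated sites in replicate 2. The exon was joined in on both sides in 10 of 178 reads that crossed this gap in replicate 1 (5.62%, interval 2.73 to 10.1%). In replicate 2 it was in 4 of 170 (2.35%, interval 0.645 to 5.91%). The intervals of the libraries overlap. The other unannotated Wfs1 forms had at most 2 reads over both libraries. Cisd2, the other gene of Wolfram syndrome, had 49.6 and 25.5 CPM.

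Pou3f1 encodes a POU-domain transcription factor, also called Oct6 or SCIP. The gene has no intron (chromosome 4, 124656807 to 124660655, plus strand), so splicing cannot sort its reads, and all 114 and 99 reads fell in its annotated model of 3849 bases. Its level was 138 CPM in replicate 1 and 133 CPM in replicate 2. Its class III relatives stood lower: Pou3f3 had 21.8 and 17.4 CPM, Pou3f2 had 7.26 and 2.68 CPM, and Pou3f4 had 0 reads in both.

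Fibcd1 encodes a membrane receptor with a fibrinogen-like domain that binds chitin and other acetylated molecules. It had 97 reads in replicate 1 and 98 in replicate 2 (chromosome 2, 31813290 to 31846005, minus strand), yet 63 and 54 of these were genomic, a mean of 60.0% ± 6.96 (SD, n = 2). It was the only one of the 10 genes at 50% genomic reads or more, beside 552 of 9058 genes in all (6.09%). In each library the genomic reads lay in 1 unspliced model over the last exon, at 31812941 to 31815771 in replicate 1 and 31813290 to 31815080 in replicate 2. The annotated last exon runs from 31813290 to 31816697. Its first 257 bases in the direction of transcription are coding, while the other 3151 hold the stop codon and 3′ UTR. Both models therefore lie in the 3′ UTR, and that of replicate 1 runs past its annotated end. The ends of such models are imprecise, so they do not place each of the reads. Counted by full-splice reads alone, Fibcd1 had 26 and 40 reads.

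The chain of Fibcd1-201 took 24 of 26 full-splice reads in replicate 1 and 33 of 40 in replicate 2. A chain that left out a pair of neighbouring coding exons together, of 160 and 137 bases, was seen in 2 reads of each library. These exons are shown because their joint length of 297 bases is a multiple of 3, so the annotated frame continues without them. Their sequences, from GENCODE M21 transcripts on GRCm38 and written 5′ to 3′ on the gene's strand, follow in transcript order, at chr2:31834289-31834448 and chr2:31833783-31833919.
Fibcd1 exon of 160 bases: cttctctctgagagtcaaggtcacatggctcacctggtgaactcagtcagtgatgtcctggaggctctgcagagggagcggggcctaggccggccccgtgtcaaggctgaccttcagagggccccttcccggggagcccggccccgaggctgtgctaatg
Fibcd1 exon of 137 bases: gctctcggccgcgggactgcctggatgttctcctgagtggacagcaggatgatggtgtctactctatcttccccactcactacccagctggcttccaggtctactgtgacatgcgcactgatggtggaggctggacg
The exon of 137 bases was left out in 2 of 28 reads that crossed it in replicate 1 (7.14%, interval 0.877 to 23.5%) and 2 of 39 in replicate 2 (5.13%, interval 0.627 to 17.3%). With 2 reads a library this share is known only to that width.

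Mpped1 encodes a metallophosphoesterase-domain protein. It had 133 reads in replicate 1 and 123 in replicate 2 (chromosome 15, 83779467 to 83858494, plus strand), and was the most varied of the 10 genes by chains of introns. Its 87 and 74 full-splice reads made 30 chains, 25 of them with 1 read. Mpped1-201 took 66 and 55 of them, a mean of 75.1% ± 1.09 (SD, n = 2). Incomplete splice matches took 46 reads in replicate 1 and 49 in replicate 2, of which 28 and 24 lay on the last exon alone. Its relative Mpped2 had 32.7 and 38.9 CPM.

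RefSeq gives Mpped1 a pair of start sites, and the reads fell unevenly between them. The first exon that ends at 83780107, which belongs to the upstream start, opened 79 of 87 full-splice reads in replicate 1 and 65 of 74 in replicate 2, a mean of 89.3% ± 2.1 (SD, n = 2). The first exon of Mpped1-203, which ends at 83784929 and belongs to the downstream start, opened 2 reads in replicate 1 and 0 in replicate 2. An unannotated chain from a first exon that ends at 83779649 had 2 reads in replicate 1 and 1 in replicate 2. The 100 bases before each start are shown because they differ in CG dinucleotides, which are in capitals. They are RefSeq promoters of GRCm38.p6 on the plus strand, at chr15:83779923-83780022 and chr15:83784729-83784828.
Mpped1 upstream start: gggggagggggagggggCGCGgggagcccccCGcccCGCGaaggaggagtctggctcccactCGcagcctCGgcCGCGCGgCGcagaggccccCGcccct
Mpped1 downstream start: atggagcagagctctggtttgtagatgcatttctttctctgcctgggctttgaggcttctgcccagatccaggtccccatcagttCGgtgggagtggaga
The 250 bases before the upstream start hold 47 CG, and those before the downstream start hold 2. The letters CG, which read the same on both strands, occur at least once in 92.1% of 32851 RefSeq promoter windows of that length, with a median of 6 per window. A window with 47 or more was found in 0.25% of them.

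Smaller changes to Mpped1 recurred in both libraries. A coding exon of 226 bases was skipped in 5 of 96 reads that crossed it in replicate 1 (5.21%, interval 1.71 to 11.7%) and 3 of 79 in replicate 2 (3.8%, interval 0.79 to 10.7%). An exon of 761 bases at 83783647 to 83784407, not in the annotation, was added before the coding part in 2 reads of replicate 1 and 4 of replicate 2. An acceptor 4 bases inside an exon was used in 2 of 98 reads in replicate 1 (2.04%, interval 0.248 to 7.18%) and 3 of 84 in replicate 2 (3.57%, interval 0.743 to 10.1%). The 20 bases that open this exon, at chr15:83852040-83852059 on the plus strand, are shown with the 4 bases left out in capitals. They end in AG, the letters that close most introns.
Mpped1 exon start: GCAGccctggttctatggct

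Spink8 encodes a small secreted inhibitor of serine proteases of the Kazal type. It had 54 reads in replicate 1 and 44 in replicate 2 (chromosome 9, 109812280 to 109826633, plus strand), nearly all full-splice, and most were split between Spink8-202 and Spink8-201, which are protein-coding forms. Spink8-202, with 5 exons and 105 codons, took 30 of 53 full-splice reads in replicate 1 and 22 of 42 in replicate 2, or 54.5% ± 2.99 (SD, n = 2). Spink8-201, with 4 exons and 95 codons, took 22 and 18. What separates them is a cassette exon of 43 bases at chr9:109824509-109824551, on the plus strand, given here from GENCODE M21 on GRCm38.
Spink8 cassette exon: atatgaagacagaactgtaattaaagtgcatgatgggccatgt
Over all spliced reads that crossed it, partial ones included, the exon was in 32 of 54 in replicate 1 (59.3%, interval 45.0 to 72.4%) and 24 of 42 in replicate 2 (57.1%, interval 41.0 to 72.3%). Its length is not a multiple of 3, so the forms end in different frames. Spink10, the other inhibitor of this family that was looked up, had 13.3 and 16.1 CPM.

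Man1a encodes a Golgi alpha-mannosidase that trims N-linked sugar chains. It had 21 reads in replicate 1 and 31 in replicate 2 (chromosome 10, 53904785 to 54076609, minus strand), the lowest of the CA1 genes. Man1a-201 took 8 of 12 full-splice reads in replicate 1 and 15 of 24 in replicate 2, and Man1a-208, which opens with another first exon, took 3 and 8. Models that lacked the first exon and carried the other 12 had 6 reads in replicate 1 and 1 in replicate 2. An unannotated donor in the first exon was used in 1 read of each library. Of its class I relatives, Man1c1 had 56.9 and 60.4 CPM and Man1a2 had 10.9 and 25.5 CPM.

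Among the CA2 genes, Amigo2 encodes an adhesion protein with leucine-rich repeats and an immunoglobulin domain. It had 34 reads in replicate 1 and 41 in replicate 2 (chromosome 15, 97244125 to 97247287, minus strand), all of them full-splice. The form with the most reads in both libraries is not in GENCODE M21. It took 15 of 34 reads in replicate 1 (44.1%, interval 27.2 to 62.1%) and 24 of 41 in replicate 2 (58.5%, interval 42.1 to 73.7%). The unspliced Amigo2-202 took 10 and 9 reads, which count as full-splice only because this unspliced form is annotated. The spliced Amigo2-201 took 8 and 7. Of the 8 genes described here that had 20 or more full-splice reads in both libraries, Amigo2 alone had an unannotated leading form, beside 299 of 4819 genes in all (6.20%).

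Both spliced forms of Amigo2 remove an intron of the 5′ UTR with the same acceptor and differ in the donor. The unannotated form uses a donor 32 bases upstream, so its intron is 375 bases long against 343 in Amigo2-201. The intron ends 58 bases before the coding part at 97244983 to 97246539, and all 3 forms therefore keep the same 519 codons. The sites are shown because they are what sets the forms apart. Each holds 10 bases on either side of the junction, from GENCODE M21 on GRCm38, 5′ to 3′ on the minus strand, with the outermost intron bases in capitals. They lie at chr15:97246963-97246982, chr15:97246931-97246950 and chr15:97246588-97246607.
Amigo2 unannotated donor: tcccagcgctGTgagtggtc
Amigo2-201 donor: ggctggctaaGTatttccgt
Amigo2 shared acceptor: ttgttaccAGattggtggga
Both donors open the intron with GT. The gene Pced1b overlaps the start of Amigo2 by 181 bases on the opposite strand, and had 2 reads in replicate 1 and 1 in replicate 2. Amigo1, a relative, had 84.7 and 77.8 CPM, and Amigo3 had 1 read in replicate 1 and 0 in replicate 2.

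Rgs14 encodes a scaffold that binds G proteins and Ras and restrains plasticity in CA2 neurons of the mouse. It had the fewest reads of the 10 genes, 17 in replicate 1 and 20 in replicate 2 (chromosome 13, 55369732 to 55384687, plus strand). None of them carried the chain of the annotated coding transcript Rgs14-201, which has 15 exons and 547 codons. The 11 and 10 full-splice reads made 13 chains, and the most frequent of these, with 14 exons, had 2 reads in each library. The annotated Rgs14-202, which is labelled a retained intron, had 1 and 1. Unannotated splice sites were in 8 of 17 reads in replicate 1 (47.1%, interval 23.0 to 72.2%) and 8 of 20 in replicate 2 (40.0%, interval 19.1 to 63.9%), against a median of 3.33% over all genes.

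The chains of Rgs14 parted around its second exon, which the annotation gives as 22 coding bases at 55378007 to 55378028. It is shown in capitals between 12 bases of each neighbouring exon, as Rgs14-201 joins them, from GENCODE M21 on GRCm38.
Rgs14 short exon in its transcript: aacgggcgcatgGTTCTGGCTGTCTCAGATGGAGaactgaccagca
Of the reads that crossed this exon, 0 of 8 in replicate 1 and 0 of 6 in replicate 2 held it with both annotated ends. These counts allow a share of up to 36.9% and 45.9% by the exact intervals. It was skipped in 5 reads of each library, and kept with another end in 3 reads of replicate 1 and 1 of replicate 2. The form with 2 reads in each library moved the donor before it by 4 bases and the acceptor after it by 10 bases, for 8 exon bases fewer than Rgs14-201 over this stretch. Another form, with 2 reads in replicate 2, moved the donor by 23 bases and so had 1 exon base more than Rgs14-201. Seen in replicate 1 alone were a form with 3 reads and 93 exon bases more, and a form with 2 reads and 22 fewer. How the reads were placed at an exon this short was not tested. The related Rgs10 and Rgs12 had 27.8 and 25.5 CPM, and 35.1 and 36.2 CPM.

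**Figure D3:**
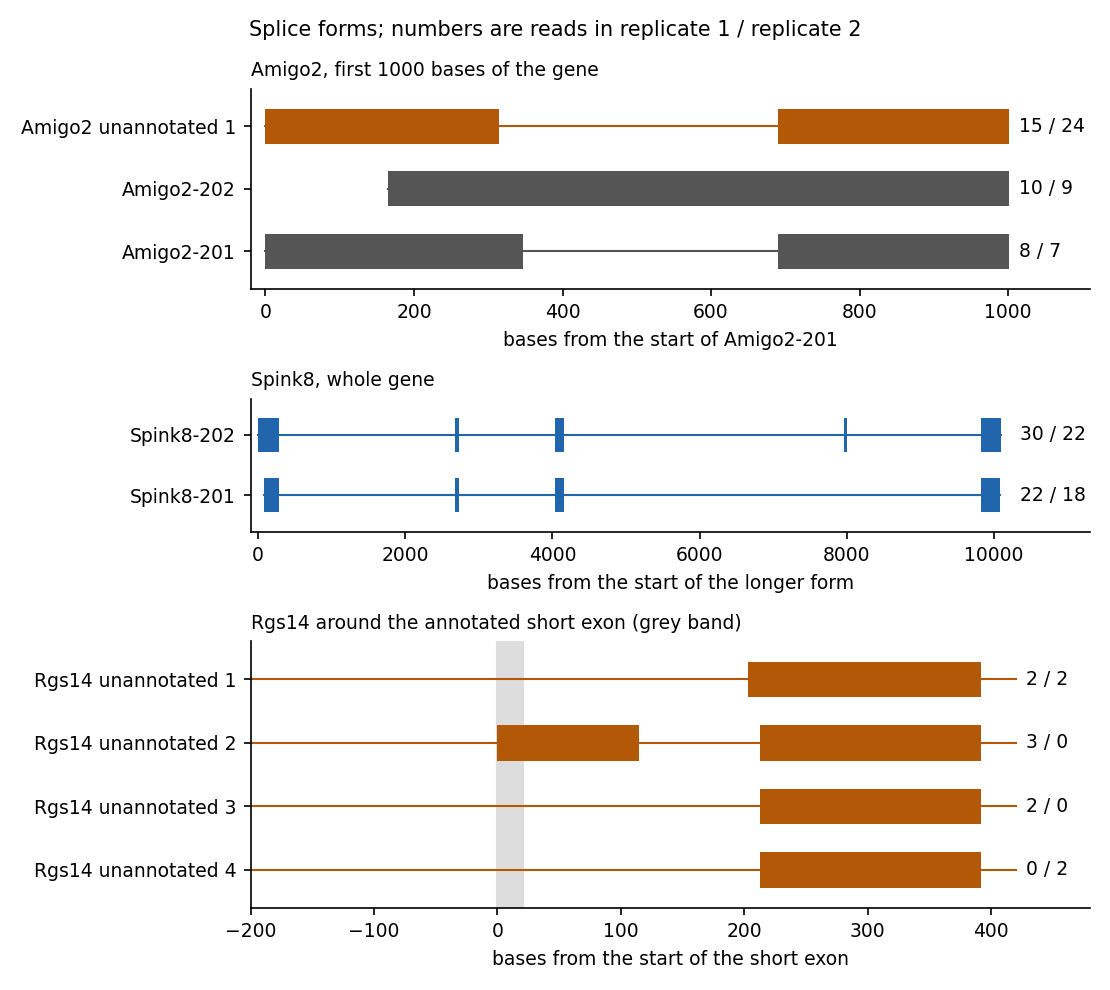
Exons (boxes) and introns (lines) of the Amigo2 forms over the first 1000 bases, of the Spink8 forms over the whole gene, and of the unannotated Rgs14 forms around the short exon, on axes in bases along the gene's strand. Reads in replicate 1 and replicate 2 stand at the right, from 15 and 24 for the unannotated Amigo2 form to 0 and 2 for an Rgs14 form, and the grey band marks the 22 bases of the short exon.

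Among the CA3 genes, Bok encodes a BCL-2 family protein that promotes cell death. It had 104 reads in replicate 1 and 72 in replicate 2 (chromosome 1, 93685660 to 93695764, plus strand). Bok-201, with 5 exons, took 62 of 64 full-splice reads in replicate 1 and 40 of 43 in replicate 2, or 94.9% ± 2.72 (SD, n = 2). An unannotated donor 25 bases inside a coding exon was used in 0 and 2 reads. A mean of 38.2% of all Bok reads were incomplete matches, against a median of 8.09% over all genes, and most of these were of a pair of kinds. A 2-exon model that starts at 93693817, the annotated start of the non-coding Bok-202, had 23 reads in replicate 1 (22.1%) and 18 in replicate 2 (25.0%). A 4-exon model that begins in the first exon but keeps the first intron had 16 reads in replicate 1 (15.4%) and 9 in replicate 2 (12.5%). These starts are those of the models. They do not place each read, nor show that each of the reads kept the first intron. Of the other BCL-2 family genes, the survival gene Bcl2l1 had 143 and 153 CPM, and the effectors Bax and Bak1 had 47.2 and 57.7 CPM, and 6.05 and 2.68 CPM. Mcl1 had 37.5 and 36.2 CPM, and Bcl2 had 10.9 and 9.39 CPM.

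Nectin3 encodes an immunoglobulin-type adhesion protein that is linked to actin through afadin. It had 35 reads in replicate 1 and 30 in replicate 2 (chromosome 16, 46387706 to 46498525, minus strand). Nectin3-201, of 549 codons, took 20 of 28 full-splice reads in replicate 1 (71.4%, interval 51.3 to 86.8%) and 26 of 29 in replicate 2 (89.7%, interval 72.6 to 97.8%). Nectin3-203, which has other last exons and 438 codons, took 3 and 2 reads, and an unannotated form with another acceptor in the last exon took 2 and 0. Afdn, which encodes afadin, had 47.2 and 33.5 CPM, and Nectin1, Nectin2 and Nectin4 each stayed below 15 CPM in both libraries.

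The share of full-splice reads in the leading form was set between the libraries with a two-sided Fisher's exact test, where a gene had more than 1 form and each library held at least 20 such reads. None of the 7 described genes tested was called, beside 10 of 4526 genes (0.221%), and none had an unadjusted p under 0.05. The smallest was that of Nectin3 (Fisher's exact p = 0.103, adjusted p = 1.0). Pou3f1 has a single form, and Man1a and Rgs14 had too few reads for this test.

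The 10 genes were set beside the other genes that were listed for each field. Of the 9 CA1 genes, 8 stood at 10 CPM or more, with a median of 93.1 CPM. Of the 10 CA2 genes, 6 did, with a median of 14.1 CPM, and of the 10 CA3 genes, 6 did, with a median of 29.4 CPM. Over all genes with a read, 52.8% reached that level. Of the 29 genes of the 3 lists, 20 did (69.0%), but these include the 10 genes described here, all of which did. Genes and lists were also chosen with earlier results of these data known. These counts therefore do not test whether field genes reach that level more often. In the CA1 list Tyro3, which encodes a receptor tyrosine kinase, had 100 and 85.8 CPM and stood between Fibcd1 and Spink8. In the CA2 list Pcp4, a calmodulin-binding peptide, had 277 and 294 CPM and Necab2, a calcium-binding protein, had 312 and 235 CPM, so both stood above Amigo2 and Rgs14. The vasopressin receptor gene Avpr1b, a defining CA2 gene, had 0 reads in both libraries. In the CA3 list the synaptic scaffold gene Homer3 had 120 and 126 CPM and the proteoglycan gene Spock1 85.9 and 77.8 CPM. No gene of the 3 lists was called between the libraries, of 19 with enough reads.

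**Figure D4:**
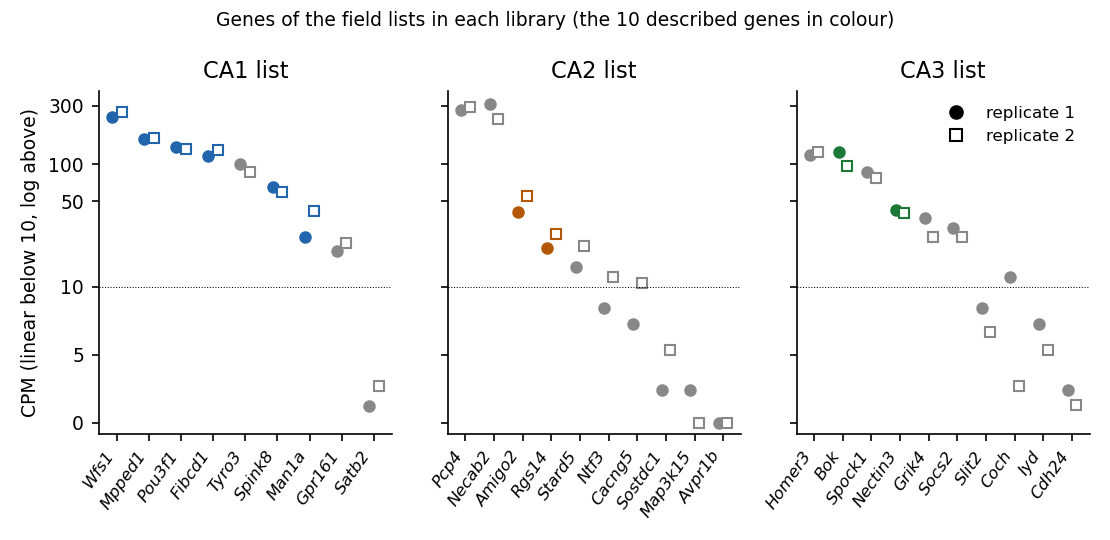
CPM of each gene of the CA1, CA2 and CA3 lists in replicate 1 (filled circles) and replicate 2 (open squares), on an axis that is linear below 10 CPM (dotted line) and logarithmic above, with the 10 genes described here in colour. The CA1 genes fill the upper part of their panel, while Pcp4 and Necab2 stand above Amigo2 and Rgs14 in the CA2 panel and Avpr1b is at 0.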

How the data were processed

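Long reads of 2 libraries of hippocampus were used as deposited: whole-number read counts per transcript model, not normalized, with the structure of each model. Per the text files deposited with them, the reads were aligned to mm10 with GENCODE M21 as annotation, and per the file headers the models come from TALON. Other deposited values give the exons and length of each model. Neither aligner nor platform is given in the sources used here. The libraries were processed apart, so unannotated models were joined across them by their chain of introns. The start and end given are those of a model, not of each of its reads, and those of single-exon models are imprecise. How reads of overlapping genes were assigned is not given.

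Counts were summed per annotated gene over all its models and divided by the non-spike-in total, 826596 reads in replicate 1 and 745492 in replicate 2. Differences between the libraries were tested over all genes with at least 20 reads together (exact binomial test) and over leading isoforms where each library held at least 20 full-splice reads (Fisher's exact test), both adjusted by Benjamini-Hochberg. Log2 ratios had 0.5 added to each count. Reads carry no molecular identifiers, so they may not be independent molecules, and the p-values may be too small. The tests compare these libraries, not conditions, and were tested on simulated data. With 2 libraries of 1 group, likeness between expression patterns was not measured.

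The genes and lists were chosen with earlier results of these data known. All 10 genes are named, with their forms of at least 2 reads together (those of Wfs1 with 2 reads only as a group), their listed relatives, and up to 4 leading genes of a list. RefSeq promoters matched 7 of the 10 genes, and those of Mpped1 alone are shown. Alternatives changed the read minimum, the fold limit, the scaling (TMM from edgeR 4.0.16, size factors from DESeq2 1.42.0), the classes counted and the length of models, and left out each replicate. The software was scipy 1.17.1, numpy 2.4.6 and pandas 2.3.3 under Python 3.11.15, and R 4.3.3.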

Additional observations from a re-analysis of the deposited data

Results flagged for a closer look

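Reads on the opposite strand, which enter no comparison above, lay over 4 of the 10 genes in both libraries at more than the 3 reads that a count of 0 allows. All were unspliced. Their number per 100 reads of the gene was also above that of the spike-in RNAs, of which 0.778% in replicate 1 and 0.691% in replicate 2 were read as antisense. Antisense reads were common over all genes tested, with a median of 3.85 per 100 reads, an upper quartile of 18.3, and 30.1% of genes with none. The median of the 10 genes was lower, at 0.977. What share of all genes passes the limits used here was not counted. Mpped1 had 12 antisense reads in replicate 1 and 7 in replicate 2, or 9.02 and 5.69 per 100 reads of the gene. Of these, 8 and 6 lay in 1 model of each library, and both models have their 3′ end at 83796107. The ends of the single reads are not given. Pou3f1 had 7 and 9, or 6.14 and 9.09 per 100 reads, each set in 1 model that ends within 10 bases of the other's. By the mean of the libraries, Mpped1 and Pou3f1 stood at percentiles 59.7 and 60.4 of all genes tested, and Man1a and Nectin3 at 88.5 and 85.2. The annotated antisense gene Gm2164 overlaps Pou3f1 by 363 bases and had 12 and 3 reads of its own. Man1a had 9 and 17, or 42.9 and 54.8 per 100 reads of the gene, over 5 and 8 models of which 4 ended within 10 bases of a model in the other library. Nectin3 had 16 and 8, or 45.7 and 26.7 per 100 reads, and 10 of the 16 in replicate 1 lay in 1 model of 1276 bases. The source of these reads was not tested.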

How the results depend on the processing

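No member was called for its level or its isoform share under any alternative run, while the smallest adjusted p of a level ranged from 0.596 to 1.0. Over all genes the level test called 28 of 9062, but 52 with no fold limit, 61 of 8306 with genomic models left out and 14 of 7558 on full-splice models alone. The isoform test called 10 of 4526, but 6 of 5130 with incomplete matches as isoforms and 0 of 2493 on annotated models alone. The median member level of 86.7 CPM became 56.1 CPM without genomic models and 54.1 CPM on full-splice models alone, since reads are left out, and 77.8 to 91.3 CPM without either replicate. TMM moved no member beyond its spread. The median genomic share was 0.588%, and 0 to 0.481% with 1 replicate left out, and the median full-splice share was 73.6%, and 72.7 to 77.6%. The median leading share of 77.8% became 98.4% on annotated models alone, where other forms are not counted, 58.7% with incomplete matches as isoforms, and 73.6 to 78.4% without either replicate. Depth limits most of all Rgs14 and Man1a, with under 25 full-splice reads in a library. No paired analysis was possible because the study has 1 group.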
